A study of Mus musculus with 30 samples.

Results

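Id1, Id2, Id3, Id4, Msx1 and Msx2 are the genes most often read as a record of bone morphogenetic protein (BMP) signalling. Their RNA was followed here through mouse embryonic stem (ES) cell differentiation and in Trp53-/- cells that carry p63shRNA and p73shRNA. The 6 genes were taken by symbol from 23284 genes in each of the 2 deposited RNA-seq tables. All 6 passed the filter on low counts in both. The list was fixed by name, with no cutoff on a measured value, but it was chosen with earlier results of these data known. The study asks how p53 works with Wnt and TGF-β inputs during mesendoderm formation, the step that comes before mesoderm and endoderm separate. Its RNA-seq compares embryoid bodies (EBs), which are aggregates of differentiating cells, at days 1, 2, 3 and 4 with ES cells at day 0, all from the wild-type E14Tg2a.IV line on a 129/Ola background and here called E14, with 2 libraries per day. It further compares day 4 EBs that are Trp53-/- and carry p63shRNA and p73shRNA, here called p53 family loss, with day 4 EBs that are Trp53+/+, both on a C57BL/6J background, with 2 libraries each. E14 cells were kept on gelatin in serum with LIF before differentiation, and the C57BL/6J lines in N2B27 medium with LIF and the 2 inhibitors PD0325901 and CHIR99021. The labels name 1 line per genotype and do not say that the 2 libraries of a group come from separate cultures, so the p-values measure only the spread between these libraries.

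BMP ligands bind paired type I and type II receptors, which phosphorylate SMAD1, SMAD5 and SMAD9; these join SMAD4 and act on DNA. The Id genes are among the most direct targets and encode helix-loop-helix proteins that lack a DNA-binding region: they capture E proteins and so hold back the tissue-specific factors that need E proteins as partners. In mouse ES cells serum BMP acts with LIF through Id proteins to restrain neural differentiation. Msx1 and Msx2 encode homeodomain repressors, respond to BMP in many embryonic tissues, and are known from the primitive streak derivatives, limb, neural crest and dorsal neural tube.

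The promoters are shown for the genes whose RNA the results below turn on, because Msx1 and Msx2 were both higher at day 4 than at day 0, while Id2 was lower and Id3 did not pass the test. Of the 6 genes, 5 matched the RefSeq promoter table, and Id1 did not. Each run is the 250 bases before the transcription start on the gene's own strand in build GRCm38.p6, whereas the deposited RNA-seq tables carry no positions and the submitters' processing notes name mm9. The windows are chr12:25096093-25096342 for Id2 (minus strand), chr4:136143572-136143821 for Id3 (plus strand), chr5:37824586-37824835 for Msx1 (minus strand) and chr13:53472781-53473030 for Msx2 (minus strand). Capitals mark every match, on either strand, to GGCGCC, which is a GC-rich SMAD1 and SMAD5 motif, to GTCTG, which holds the core SMAD box, to CCAAT, and to TAATTA, a core bound by many homeodomain proteins. No 2 of the marked matches overlap.
Id2: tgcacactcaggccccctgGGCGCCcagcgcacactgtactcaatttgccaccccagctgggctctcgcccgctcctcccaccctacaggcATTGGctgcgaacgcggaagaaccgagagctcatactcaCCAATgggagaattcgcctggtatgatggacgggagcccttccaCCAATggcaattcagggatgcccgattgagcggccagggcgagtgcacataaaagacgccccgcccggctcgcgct
Id3: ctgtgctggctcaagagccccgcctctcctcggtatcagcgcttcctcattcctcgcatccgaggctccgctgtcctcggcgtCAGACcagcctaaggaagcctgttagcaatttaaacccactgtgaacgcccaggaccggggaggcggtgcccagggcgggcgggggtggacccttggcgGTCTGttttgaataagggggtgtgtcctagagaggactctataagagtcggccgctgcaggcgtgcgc
Msx1: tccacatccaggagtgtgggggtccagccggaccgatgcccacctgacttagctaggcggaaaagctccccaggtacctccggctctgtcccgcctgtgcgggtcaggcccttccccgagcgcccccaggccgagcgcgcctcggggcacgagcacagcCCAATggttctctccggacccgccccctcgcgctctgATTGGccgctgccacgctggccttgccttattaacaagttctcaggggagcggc
Msx2: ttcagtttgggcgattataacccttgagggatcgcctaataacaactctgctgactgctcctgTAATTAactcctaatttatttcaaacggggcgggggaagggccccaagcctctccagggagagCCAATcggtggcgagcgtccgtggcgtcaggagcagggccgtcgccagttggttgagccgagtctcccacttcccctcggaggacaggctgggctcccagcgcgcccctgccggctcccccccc
GGCGCC occurs in 9.59% of the 32851 RefSeq promoter windows of the same length, and it was found once in Id2, ending 226 bases before the start. GTCTG is common, in 42.2% of windows, and was found at 2 places in Id3 and in neither Msx gene. CCAAT, in 33.8% of windows, was found at 3 places in Id2, 2 in Msx1 and 1 in Msx2. The homeodomain core TAATTA, in 4.84% of windows, was found in Msx2 alone of the 4. The promoter of Id4 held 1 match to the GC-rich motif and 2 to the CCAAT box. Neither TATAAA, in 12.4% of windows, nor the p53 half-site, in 7.13%, was found in any of the 5 windows. These are matches of letters within a short window, and distal elements were not read.

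Values below are normalised read counts, the read count of a gene divided by 1 factor per library as the authors deposited it. E14 libraries held 20104644 to 39835808 reads and genotype libraries 19104692 to 31580252. Changes are log2 fold changes on log2 of the normalised count plus 1, with the standard error (SE), and the test is limma with Benjamini-Hochberg adjustment over all genes that passed the filter, 15841 for the days and 14840 for the genotypes. A gene is called at an adjusted p under 0.05. The defining markers moved with the labelled cell states: 9 of 10 naive pluripotency genes were lower and 12 of 12 streak and mesoderm genes higher at day 4 than at day 0. Since these are bulk libraries, fewer cells of a type and less RNA per cell cannot be told apart.

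**Figure D1:**
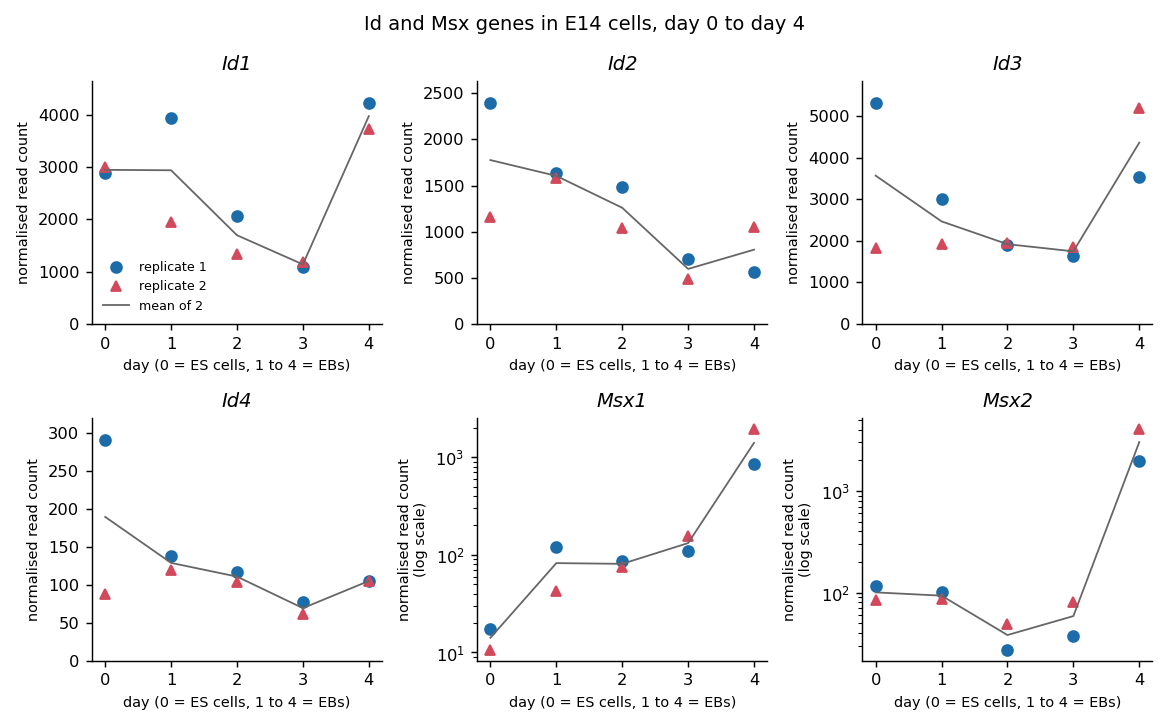
Normalised read count of each of the 6 genes in every E14 library (circles, replicate 1; triangles, replicate 2), in ES cells (day 0) and EBs (days 1 to 4), with a line through the mean of 2. Msx1 and Msx2 have log axes. Both Msx genes jump between day 3 and day 4, to 1405 and 3024 on average, while Id1 dips to 1138 at day 3 and Id2 ends at 805.

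Between day 0 and day 4 the Msx genes rose by far the most of the 6. Msx1 and Msx2 were higher and Id2 was lower at day 4 than in ES cells, while Id1, Id3 and Id4 did not pass the test between those days. Among all genes tested, 19.2% were called higher and 16.7% lower at day 4. Over any of the 5 days 4 of the 6 genes were called, Id1, Id2, Msx1 and Msx2, against 38.9% of all genes. The median change of the 6 at day 4 against day 0 was 0.44, beside 0.01 for all genes tested, and for the 4 Id genes alone it was -0.09.

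Msx1 was close to undetected in ES cells and increased in 2 stages. Its normalised counts were 17.6 and 10.7 at day 0, 121 and 43.1 at day 1, 87.1 and 74.7 at day 2, 110 and 154 at day 3, and 852 and 1958 at day 4. Every library from day 1 on lay above both day 0 libraries, and both day 4 libraries lay above all others. The ES values rest on 16 and 9 reads, for which the exact 95% Poisson intervals, covering counting error only, are 9.15 to 26 reads and 4.12 to 17.1 reads. Against day 0 the log2 change was 2.32 ± 0.55 at day 1 (adjusted p = 0.052), 2.47 ± 0.55 at day 2 (adjusted p = 0.014) and 3.15 ± 0.55 at day 3 (adjusted p = 0.0032). At day 4 it was 6.46 ± 0.55 (95% interval 5.23 to 7.68, adjusted p = 4.8e-05), a mean 99.5 times the ES mean. Day 4 exceeded day 3 by 3.30 ± 0.55 (adjusted p = 0.012), with means of 1405 ± 782 and 132 ± 31.6 (SD, n = 2 each). The day 2 call against day 0 was lost without either day 2 library, and the day 4 call against day 3 without either day 3 library or without day 4 replicate 2; the rise against day 0 was called in all 18 alternatives.

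Msx2 was flat or low until day 3 and then rose in a single step. It measured 116 and 84.3 at day 0, 101 and 85.4 at day 1, 27.4 and 48.9 at day 2, 37.2 and 80.1 at day 3, and 1959 and 4089 at day 4. Both libraries of day 2 and of day 3 lay below both day 0 libraries, and both day 4 libraries lay above every other one. The lower counts at days 2 and 3 did not pass the test: the log2 change against day 0 was -1.41 ± 0.49 at day 2 (adjusted p = 0.070) and -0.85 ± 0.49 at day 3 (adjusted p = 0.21). Day 4 exceeded day 3 by 5.67 ± 0.49 (95% interval 4.59 to 6.75, adjusted p = 0.00054), 51.6 times the day 3 mean. Against ES cells the rise at day 4 was 4.82 ± 0.49 (adjusted p = 1.1e-04), a ratio of means of 30.1. Both calls held in all 18 alternatives.

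The day 4 replicates were not alike for the Msx genes. Replicate 2 had 2.30 times the Msx1 and 2.09 times the Msx2 count of replicate 1. Genes of extraembryonic mesoderm and amnion moved with them: Hand1, a basic helix-loop-helix factor of those tissues and of heart, had 2145 in replicate 1 and 9272 in replicate 2, and Foxf1a, a forkhead gene of lateral and extraembryonic mesoderm, had 260 and 1011. Over the 10 genes of that list the summed level was 245 and 601 CPM (a gene's share of its library's reads) at day 4, against 256 and 212 CPM at day 0, with none of the 10 at 0 in either day 4 library. Hand1 is on that list and carried much of the sum, with a mean of 192 ± 167 CPM at day 4 (SD, n = 2). Other lists were also higher in day 4 replicate 2 than in replicate 1. In replicates 1 and 2 the other listed BMP targets had 347 and 511 CPM and BMP ligands 124 and 184 CPM. Mesodermal basic helix-loop-helix genes, Hand1 among them, had 306 and 523 CPM. Streak and mesoderm genes as a list did not split that way, with summed levels of 2736 and 2459 CPM in day 4 replicates 1 and 2. The part of extraembryonic mesoderm cells in the Msx values was not tested.

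Id1, the Id gene most used as an immediate BMP readout, dipped and came back. Its normalised counts were 2889 and 3001 at day 0, 3932 and 1942 at day 1, 2059 and 1332 at day 2, 1090 and 1187 at day 3, and 4220 and 3722 at day 4. Both day 3 libraries were below, and both day 4 libraries above, every library of day 0. At day 3 the log2 change against day 0 was -1.37 ± 0.31 (95% interval -2.06 to -0.69, adjusted p = 0.010), and at day 4 against day 3 it was 1.80 ± 0.31 (adjusted p = 0.014), 3.49 times the day 3 mean. Day 4 itself did not differ from day 0 past the test (0.43 ± 0.31, 95% interval -0.26 to 1.11, adjusted p = 0.30). The fall to day 3 was lost without either day 3 library (adjusted p up to 0.062), and the return was lost without any 1 of the day 3 or day 4 libraries (adjusted p up to 0.15), with a log2 change of at least 1.71 in every alternative. Being both lower at day 3 than day 0 and higher at day 4 than day 3 was met by 64 of the genes tested, 0.404%, among them Id1 and Bmp4. The day 3 against day 0 comparison was added after the values were seen.

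Id2, like Id1 an inhibitor of E proteins, fell and stayed down. It measured 2393 and 1159 at day 0, 1633 and 1576 at day 1, 1480 and 1038 at day 2, 702 and 491 at day 3, and 562 and 1048 at day 4. Both day 3 and both day 4 libraries lay below the 2 day 0 libraries, the day 4 pair only just. The log2 change against day 0 was -1.50 ± 0.38 at day 3 (adjusted p = 0.017) and -1.12 ± 0.38 at day 4 (95% interval -1.97 to -0.26, adjusted p = 0.045). The day 3 call was lost without day 3 replicate 2 or ES replicate 1. The day 4 fall is a borderline call, kept in 8 of 18 alternatives, and it was lost with CPM scaling, without a low-count filter and without any 1 library other than day 4 replicate 2 and ES replicate 2. Its size ran from -1.64 to -0.59 over the alternatives. Day 4 against day 3 did not pass the test (0.39 ± 0.38, adjusted p = 0.77).

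Id3 had a course like that of Id1 in its means, but limma with all libraries did not call it. It measured 5313 and 1825 at day 0, 3014 and 1922 at day 1, 1900 and 1940 at day 2, 1640 and 1855 at day 3, and 3525 and 5199 at day 4. Both day 4 libraries were above all libraries of days 1, 2 and 3 and lay within the widely spaced day 0 pair. The log2 change at day 4 against day 3 was 1.29 ± 0.42 (95% interval 0.36 to 2.23, adjusted p = 0.16), and the day 4 change against day 0 was 0.46 ± 0.42 (adjusted p = 0.42). Over 18 alternatives Id3 was called higher at day 4 than day 3 in 3, and lower at day 3 than day 0 in 2. DESeq2 was among them both times, so the contrast with Id1 depends on the tool.

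Id4, tied in the embryo mainly to neural progenitors, had the fewest reads of the Id genes. It measured 291 and 87.9 at day 0, 138 and 120 at day 1, 117 and 104 at day 2, 77.2 and 61.2 at day 3, and 106 and 104 at day 4. Day 3 lay below every other library, and the day 4 pair lay between the day 0 libraries. Its change against day 0 was -1.21 ± 0.49 at day 3 (adjusted p = 0.086) and -0.60 ± 0.49 at day 4 (95% interval -1.69 to 0.49, adjusted p = 0.36). The day 3 fall was called in 2 of 18 alternatives, DESeq2 among them.

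Id2, Id3 and Id4 depended on which day 0 library was used. ES replicate 1 had 2.06 times the Id2, 2.91 times the Id3 and 3.31 times the Id4 count of replicate 2, whereas Id1 was the same in both within 1.04-fold. Immediate-early genes such as Fos and Egr1, induced within minutes by serum or handling, had a summed level of 1374 CPM in that replicate and 353 CPM in the other, with none of the 10 at 0. In ES replicates 1 and 2 the other listed BMP targets had 496 and 241 CPM, and trophoblast genes 1000.5 and 342 CPM. Neural crest genes went the other way, with 35.5 and 93.0 CPM, and BMP ligands were near level, with 193 and 176 CPM. The part of any of these lists in the Id values was not tested. Without ES replicate 1, Id3 was called higher at day 4 than at day 0 (1.23, adjusted p = 0.0071) and Id4 was 0.25. Without ES replicate 2, Id3 was -0.31 and Id4 was called lower (-1.46, adjusted p = 0.0052).

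**Figure D2:**
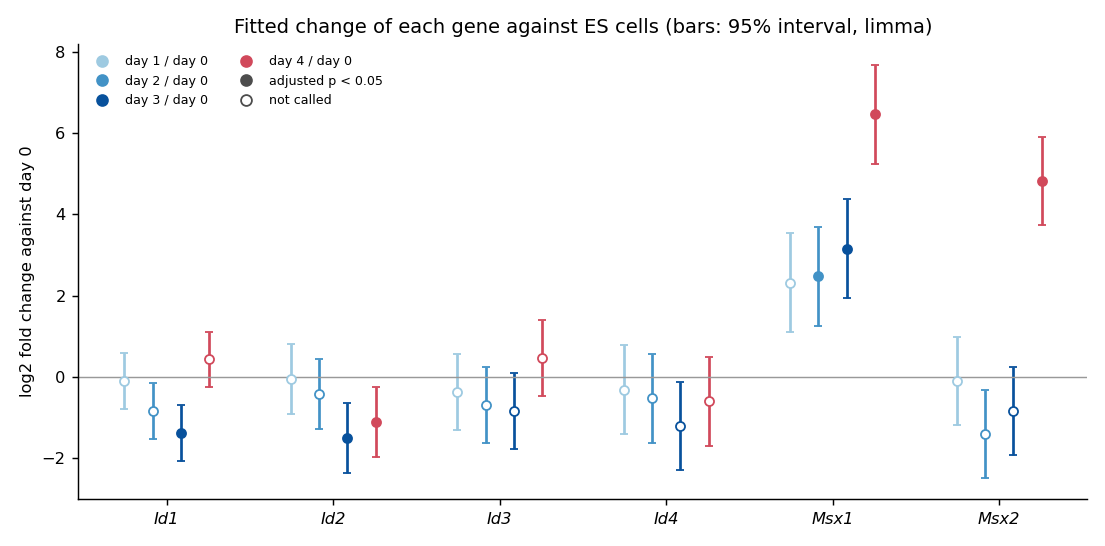
Fitted log2 fold change of each gene at days 1, 2, 3 and 4 against ES cells at day 0, with 95% intervals from limma (n = 2 libraries a day); filled points have an adjusted p under 0.05. At day 4 Msx1 stands at 6.46 and Msx2 at 4.82, Id2 at -1.12, and the other Id genes between -0.60 and 0.46.

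Taken by step, limma called members in the last day alone. By size, Id2 (-1.08) and Id4 (-0.68) had their largest step at day 3 against day 2. Msx1 had changed by 2.32 at day 1 against day 0. At day 4 against day 3, Id1, Msx1 and Msx2 rose, 3 of the 6 genes, where 2.31% of all genes tested were called higher and 0.619% lower. The median of the 6 was 1.55 beside 0.00 for all genes. At day 4 against day 2, Id1, Msx1 and Msx2 were again called higher, with changes of 1.26 ± 0.31 for Id1 (adjusted p = 0.022), 3.98 ± 0.55 for Msx1 (adjusted p = 0.0015) and 6.23 ± 0.49 for Msx2 (adjusted p = 8.7e-05), against 8.35% of all genes. Day 3 against day 0 called Msx1 higher and Id1 and Id2 lower, against 15.4% of genes higher and 14.4% lower. Day 2 against day 0 called Msx1 alone of the 6 (18.3% of all genes in either direction). No member was called by limma at day 1 against day 0 (3.3% of all genes; 1 member had an unadjusted p under 0.05), at day 2 against day 1 (0.593%; 2 members) or at day 3 against day 2 (0.133%; 1 member). For those 3 steps edgeR called 0, 0 and 0 members and DESeq2 1, 0 and 0. The share of all genes with an unadjusted p under 0.05 was not counted.

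Ordering the days by mean level gave day 4, 0, 1, 2, 3 from high to low for Id1 and Id3, and 0, 1, 2, 4, 3 for Id2 and Id4. For none of the Id genes did any neighbouring pair in that order pass the test. Msx1 ran 4, 3, 1, 2, 0, with day 4 above day 3 and day 2 above day 0 passing and the steps among days 3, 1 and 2 not. For Msx2 the order was 4, 0, 1, 3, 2, in which day 4 above day 0 was the one neighbouring step that passed.

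Genes with the most similar course were found by Pearson's r of the log2 values over the 10 E14 libraries among 10094 genes, as a description. For Msx1 they were Kifc2 (r = 0.98), Twist1 (0.98), a mesodermal basic helix-loop-helix gene, and Pkig (0.98). For Msx2 they were Hhex (0.98), a homeobox gene of anterior endoderm and blood vessel precursors, Foxf1a (0.98) and Cbln1 (0.97). Each of these 6 had its highest mean at day 4, and Foxf1a averaged 635 then against 7.31 at day 0. For Id1 they were Rwdd2b (0.94), Fscn1 (0.93) and Slc38a10 (0.90), for Id2 Ythdc1 (0.98), Slbp (0.97) and Cstf1 (0.96), for Id3 Gps2 (0.97), Sec11a (0.96) and Med16 (0.94), and for Id4 Crcp (0.96), Snw1 (0.96) and Ndufa3 (0.95). Pearson's r follows the shape of a course and not its size. Ythdc1 averaged 5596 at day 0 and 4463 at day 3, while Id2 averaged 1776 and 596. The points share their libraries, so the spread between day 0 replicates enters the Id2, Id3 and Id4 values.

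The ligands upstream of these genes took different courses. Bmp4, the main BMP of the early embryo and its extraembryonic tissue, measured 752 and 1361 at day 0, 761 and 259 at day 1, 241 and 205 at day 2, 151 and 230 at day 3, and 1130 and 2558 at day 4. It was low at days 2 and 3 in both libraries and high at day 4 in both, with replicate 2 the higher, as for Msx1 and Msx2. It was lower at day 3 than day 0 (-2.44 ± 0.53, adjusted p = 0.0092) and higher at day 4 than day 3 (3.18 ± 0.53, adjusted p = 0.012), while day 4 against day 0 did not pass (0.75 ± 0.53, adjusted p = 0.30). The first of these calls was lost without day 3 replicate 1, and the second without either day 3 library or day 4 replicate 2. Bmp2 averaged 32.4 ± 5.46 at day 0, 4.58 ± 0.83 at day 1, 6.09 ± 1.07 at day 2, 42.0 ± 14.8 at day 3 and 798 ± 67.3 at day 4 (SD, n = 2 each), a log2 change of 4.59 ± 0.42 at day 4 against day 0 (adjusted p = 7.2e-05). Bmp5 had 133 and 167 reads at day 4, against 1 and 0 reads at day 0, and was called higher (adjusted p = 6.6e-05), with a fold that depends on the pseudocount. Gdf3, a TGF-β family ligand of pluripotent cells that can also hold back BMP, fell by 4.57 on the log2 scale. Of the 11 BMP ligands on the list, 4 were higher and 3 lower at day 4 than day 0 (median 0.71), and 3 were higher and 1 lower at day 4 than day 3.

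Receptors and SMADs mostly rose. Of 7 receptors 3 were higher at day 4 than day 0 and none lower, with Acvr2b, a type II receptor, at 1.42 ± 0.28 (adjusted p = 0.0040) and Bmpr1a, a type I receptor, at 0.86 ± 0.20 (adjusted p = 0.0084), a call lost without day 4 replicate 2. All 4 SMAD genes listed were higher, led by Smad1 with a log2 change of 2.49 ± 0.17 (adjusted p = 1.9e-05) and means of 3575 ± 36.8 at day 4 and 635 ± 43.3 at day 0 (SD, n = 2 each).

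Feedback inhibitors split. Smad6, an inhibitory SMAD that BMP induces, measured 226 and 450 at day 0, 315 and 299 at day 1, 324 and 322 at day 2, 254 and 422 at day 3, and 1294 and 2312 at day 4. It was flat through day 3 and high in both day 4 libraries (2.44 ± 0.39 against day 0, adjusted p = 0.0013; 2.40 ± 0.39 against day 3, adjusted p = 0.011, lost without day 3 replicate 1 or day 4 replicate 2). Bambi, a decoy receptor co-expressed with BMP4 in embryos, averaged 1567 ± 612 at day 4 and 580 ± 257 at day 0 (1.45 ± 0.35, adjusted p = 0.011), a call lost without day 4 replicate 2. Smad7, which blocks both the BMP and the TGF-β branch, went the other way, at 1335 ± 284 at day 4 and 4120 ± 2469 at day 0 (-1.50 ± 0.36, adjusted p = 0.0097, lost without day 4 replicate 1). Its ES replicate 1 was the high one, as for Id2, Id3 and Id4. Over the 6 listed inhibitors 3 were higher and 2 lower.

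Secreted antagonists of BMP rose with differentiation, 7 of 10 higher and none lower at day 4 than day 0 (median 1.98). They included Fst, which traps activin and some BMPs, at 6.13 ± 0.28 (adjusted p = 4.0e-06), and Cer1, an antagonist of Nodal, BMP and Wnt from anterior endoderm, at 9.67 ± 0.89 (adjusted p = 7.2e-05). Cer1 averaged 0.59 at day 0, so its fold depends on the pseudocount and ran from 5.36 to 11.1 over the alternatives. Nog, the BMP antagonist noggin, changed by 1.23 ± 0.62 against day 0 without passing (adjusted p = 0.15). Of 14 other genes listed as BMP targets, which include Smad6, Smad7 and Bambi, 8 were higher and 2 lower at day 4 than day 0 (median 1.58), and 7 were higher and none lower than at day 3 (median 1.98). Examples were Hey1, a Notch and BMP target (2.90 ± 0.33, adjusted p = 1.9e-04), Atoh8 (3.90 ± 0.60, adjusted p = 0.0011) and Tbx2, a T-box repressor (3.89 ± 0.62, adjusted p = 0.0013).

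**Figure D3:**
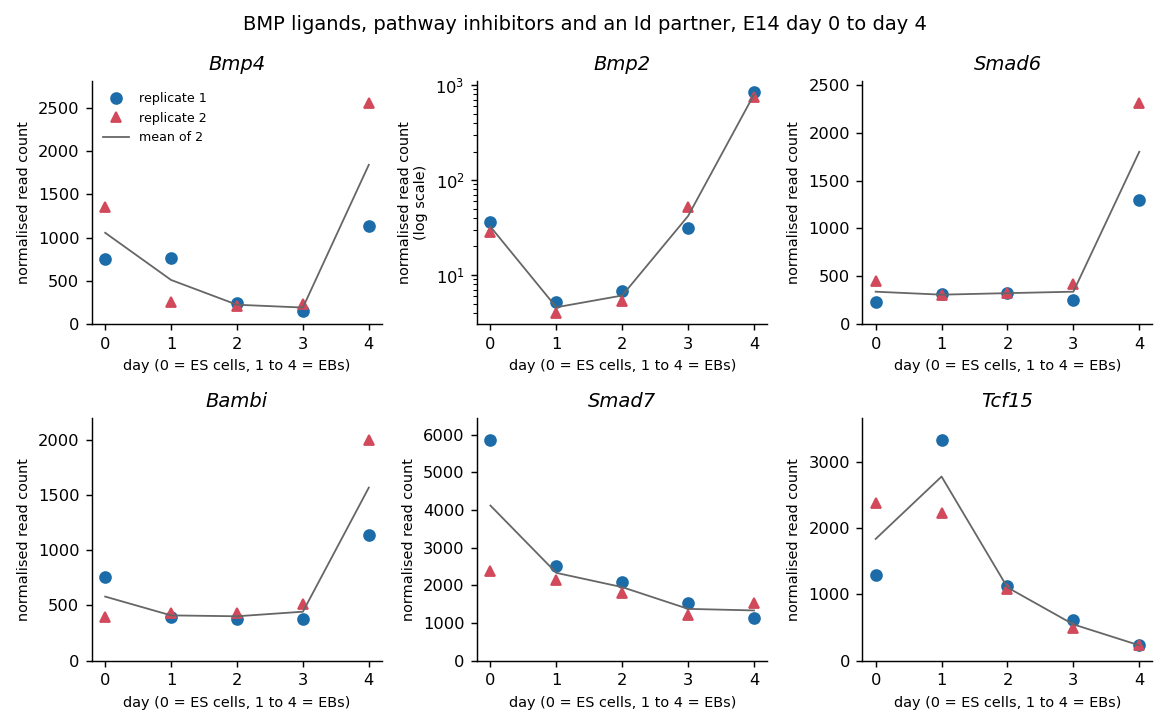
Normalised read counts of 2 BMP ligands (Bmp4, and Bmp2 on a log axis), 3 pathway inhibitors and Tcf15 in every E14 library by day (circles, replicate 1; triangles, replicate 2; line, mean of 2). Bmp4, Bmp2, Smad6 and Bambi are highest at day 4, where Bmp4 averages 1844, while Tcf15 averages 2781 at day 1 and 232 at day 4.

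The partners and rivals of the Id proteins changed as well. Of the 3 E-protein genes, Tcf12 was higher at day 4 than day 0 (1.93 ± 0.22, adjusted p = 2.1e-04), while Tcf3 (0.25 ± 0.15, adjusted p = 0.20) and Tcf4 (0.56 ± 0.22, adjusted p = 0.070) did not pass and were called with CPM scaling. Tcf15, a basic helix-loop-helix gene that Id proteins are known to restrain in ES cells, averaged 1839 ± 776 at day 0, 2781 ± 785 at day 1, 1106 ± 31.7 at day 2, 548 ± 87.6 at day 3 and 232 ± 2.64 at day 4 (SD, n = 2 each). It was lower at day 4 than day 0 by a log2 change of -2.91 ± 0.30 (adjusted p = 1.2e-04). Of 14 basic helix-loop-helix genes listed for mesoderm, 13 were tested, 8 of them higher and 1, Tcf15, lower at day 4; Mesp1, the early cardiac mesoderm factor, rose by 9.15 ± 0.73 and Msgn1, of presomitic mesoderm, by 8.83 ± 0.77. Of 10 listed for neural tissue, 7 were tested, none higher and 2 lower, Neurod1 (-3.31 ± 0.34) and Olig3 (-3.79 ± 0.63). Mesp1 and Msgn1 averaged 4.02 and 1.19 at day 0, and Olig3 0.54 at day 4, so these folds depend on the pseudocount. Over the alternatives Mesp1 ran from 6.43 to 9.47, Msgn1 from 4.83 to 10.0 and Olig3 from -5.40 to -0.66. Of 7 homeobox genes related to Msx1 and Msx2, 5 were tested and 1 was higher at day 4, Dlx3 (1.72 ± 0.52, adjusted p = 0.027, lost without day 4 replicate 2 or ES replicate 1). Among lists of other cells, 8 of 9 endoderm genes tested were higher at day 4, 4 of 8 of extraembryonic mesoderm, 4 of 9 of trophoblast, 4 of 9 of neural crest, 4 of 10 neural and 3 of 8 of feeder fibroblasts, and 0, 0, 1, 1, 3 and 0 of them were lower.

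Msx1 was lower in EBs with p53 family loss, and no Id gene passed the test on unpaired libraries. Trp53 itself had 866 and 802 in p53 family loss EBs, against 8339 and 11784 in Trp53+/+ EBs (-3.57 ± 0.20, adjusted p = 0.0017). Trp73 was lower too (-2.32 ± 0.28, adjusted p = 0.022), and Trp63, with 6 and 0 reads in p53 family loss and 7 and 4 in Trp53+/+ libraries, was too low to test. Among the 6 genes 1 was called, Msx1, lower with loss, where 0.674% of all genes were called lower and 0.566% higher. The median of the 4 Id genes was 0.42 beside 0.01 for all genes tested.

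Msx1 had 57.7 and 33.5 in p53 family loss EBs, against 289 and 296 in Trp53+/+ EBs. Both loss libraries were far below both Trp53+/+ libraries. The log2 change was -2.71 ± 0.33 (95% interval -3.51 to -1.90, adjusted p = 0.022), which puts the Trp53+/+ mean at 6.42 times the loss mean, and it was called in all 12 alternatives. Msx2 had 245 and 169 in p53 family loss EBs, against 542 and 336 in Trp53+/+ EBs. The groups did not overlap, yet the change of -1.06 ± 0.32 (95% interval -1.83 to -0.30, adjusted p = 0.21) did not pass. It was called lower in 3 of 12 alternatives, among them DESeq2 and limma without Trp53+/+ replicate 2.

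Msx3, the Msx gene of the dorsal neural tube, went the other way. It had 35.5 and 31.8 in p53 family loss EBs and 0 in both Trp53+/+ EBs, from 48 and 37 reads against 0 and 0. The loss mean was 10.2 times a floor of 3 reads per Trp53+/+ library, with no allowance for error in the loss counts. The limma fit called Msx3 higher with loss (adjusted p = 0.017). In the E14 course its mean was at most 9.07 on any day.

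The 4 Id genes all had higher means with loss, and none was called by limma with all 4 libraries taken as unpaired. Over 12 alternatives Id2 was called higher in 2, a fit with replicate number as a block and the fit without Trp53+/+ replicate 2 (0.88). Id3 was called higher in 1, the block, and Id1 and Id4 in none. Whether replicate numbers pair these libraries is not known. Id1 had 1189 and 1517 in p53 family loss EBs, against 924 and 1359 in Trp53+/+ EBs, which overlap (0.26 ± 0.24, 95% interval -0.32 to 0.84, adjusted p = 0.73). Id2 had 691 and 831 in p53 family loss EBs, against 413 and 662 in Trp53+/+ EBs (0.53 ± 0.27, 95% interval -0.11 to 1.18, adjusted p = 0.46). The Id2 groups were apart by a narrow margin. Id3 had 2582 and 2976 in p53 family loss EBs, against 1935 and 2257 in Trp53+/+ EBs (0.41 ± 0.17, 95% interval 0.01 to 0.81, adjusted p = 0.35). Id4 had 120 and 133 in p53 family loss EBs, against 99.9 and 86.2 in Trp53+/+ EBs (0.44 ± 0.27, 95% interval -0.20 to 1.08, adjusted p = 0.56). The loss libraries of Id2, Id3 and Id4 all lay above both Trp53+/+ libraries. Of the 6 genes, 3 had an unadjusted p under 0.05, namely Id3, Msx1 and Msx2. The share of all genes with such a p, or with groups apart, was not counted, so neither is read as a result.

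**Figure D4:**
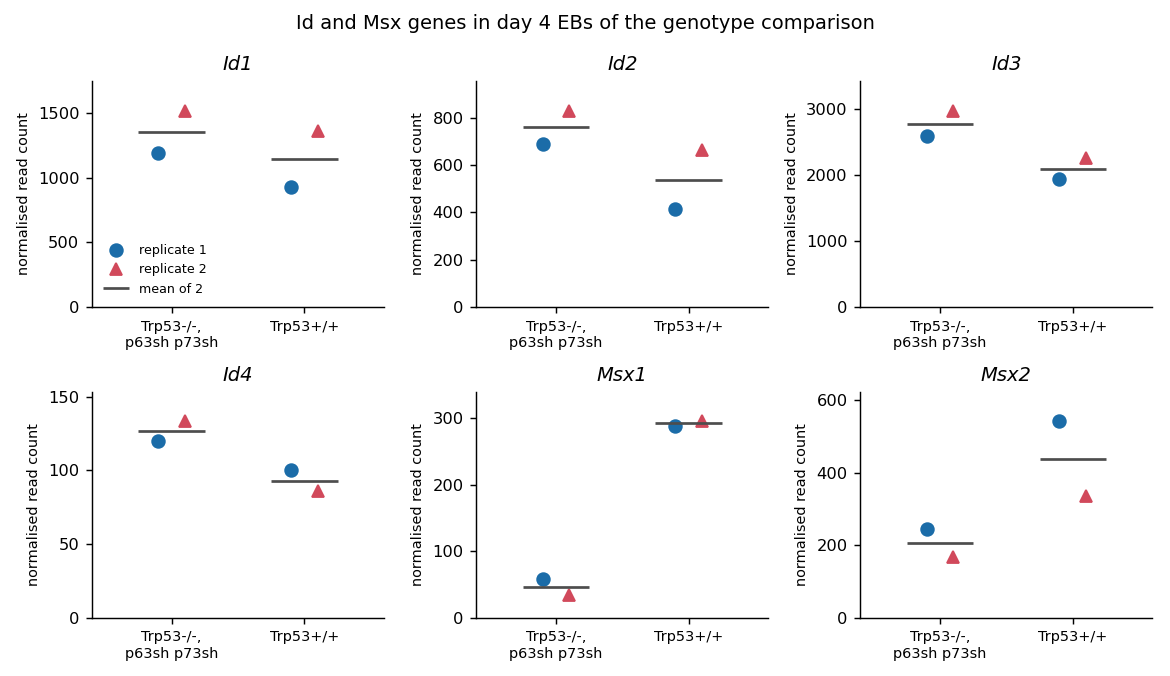
Normalised read count of each gene in the p53 family loss (left) and Trp53+/+ (right) day 4 EB libraries (circles, replicate 1; triangles, replicate 2; bars, mean of 2). Msx1 averages 45.6 with loss and 293 in Trp53+/+, and Msx2 207 and 439, while the 4 Id genes have the higher mean with loss.

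The same EBs differed in cell-type markers, and these values stand beside the Msx result. Of 12 streak and mesoderm genes 9 were lower with loss and none higher (median -2.22), with T, the streak factor brachyury, at -2.89 ± 0.20 (adjusted p = 0.0044) and Mesp1 at -3.40 ± 0.35 (adjusted p = 0.016). Summed over that list the level was 441 and 398 CPM with loss and 1960 and 1863 CPM in Trp53+/+, with no gene at 0 in any of the 4 libraries. Of 10 neural genes 3 were higher and none lower, among them Sox1 (4.57 ± 0.19, adjusted p = 1.0e-03) and Pax6 (4.72 ± 0.27, adjusted p = 0.0017), and their summed level was 754 and 794 CPM with loss and 394 and 443 CPM in Trp53+/+. The 10 neural basic helix-loop-helix genes summed to 45.2 and 47.5 CPM with loss and 140 and 89.5 CPM in Trp53+/+. Most of that difference was Olig1, which averaged 26.8 CPM with loss and 84.7 CPM in Trp53+/+. The median log2 change of the 6 genes tested was 0.50, higher with loss. Of 6 tested, Olig1 was lower (-1.67 ± 0.24, adjusted p = 0.036, lost with CPM scaling). Neurod4 was higher (adjusted p = 0.019), with a fold that depends on the pseudocount. Of 9 neural crest genes tested 1 was higher, Pax3, of the dorsal neural tube and crest (3.29 ± 0.45, adjusted p = 0.032, lost with CPM scaling and without loss replicate 1). Extraembryonic mesoderm genes summed to 133 and 68.4 CPM with loss and 192 and 76.0 CPM in Trp53+/+, with none called of 8 (5 without Trp53+/+ replicate 2 and 1 without replicate 1). Of 9 endoderm genes 1 was lower, Foxa2, of 9 trophoblast genes 1 was lower, Eomes, which is also a streak gene, and of 9 feeder fibroblast genes 1 was higher, Col1a2, while none of 10 naive pluripotency genes was called. The part of these cell types in the Msx1 and Msx3 values was not tested.

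The rest of the BMP pathway showed few calls between genotypes, as did all genes tested. None of 9 ligands, 7 receptors, 4 SMADs, 6 intracellular inhibitors and 13 other BMP targets tested was called by unpaired limma or edgeR. DESeq2 called 1 of the other targets, and 657 genes in all. Limma called 0.674% of all genes tested lower and 0.566% higher. The lack of calls in these short lists is therefore not read as a result about the pathway. With either Trp53+/+ library left out, some ligands and other targets were called, and without replicate 2 a receptor too. Bmp4 had 214 and 171 in p53 family loss EBs, against 367 and 210 in Trp53+/+ EBs, and its change of -0.53 ± 0.32 (adjusted p = 0.56) did not pass. Smad6 changed by -0.52 ± 0.20 (adjusted p = 0.33). Of 9 antagonists tested 1 was lower, Fst (-2.18 ± 0.24, adjusted p = 0.017), with 1520 and 1150 in p53 family loss EBs, against 4932 and 7261 in Trp53+/+ EBs. Bmper, a secreted BMP-binding protein, lay at the threshold, with 54.0 and 47.3 in p53 family loss EBs, against 215 and 158 in Trp53+/+ EBs (-1.85 ± 0.30, adjusted p = 0.051). It was called lower in 6 of 12 alternatives, among them DESeq2 and limma without either Trp53+/+ library. None of the 3 E-protein genes was called, and Tcf15 changed by 1.08 ± 0.24 without passing (adjusted p = 0.12), though it was called higher in 4 of 12 alternatives, among them DESeq2 and limma without either Trp53+/+ library.

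**Figure D5:**
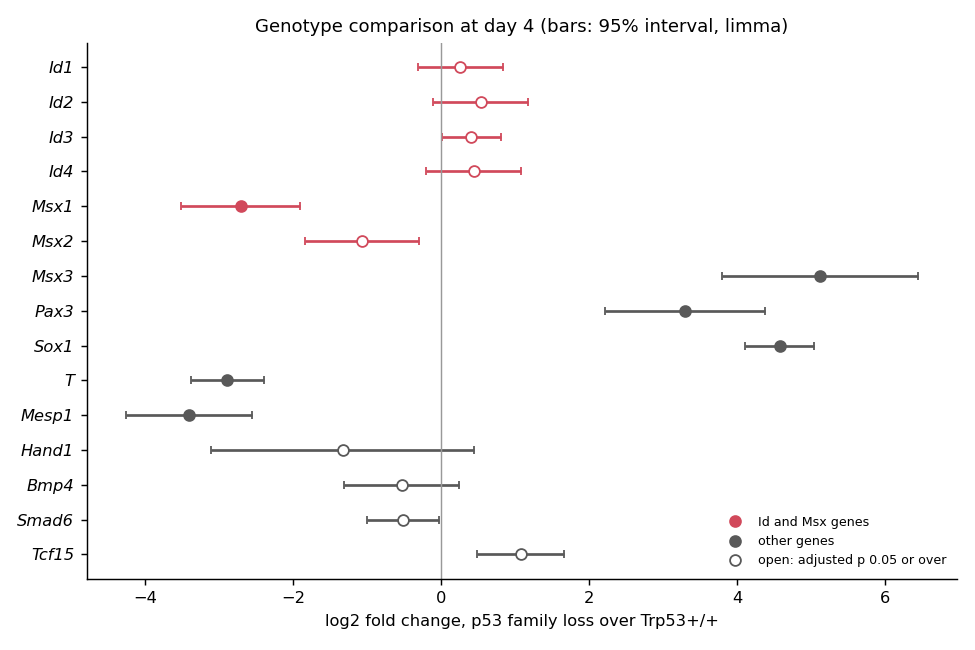
Fitted log2 fold change of p53 family loss over Trp53+/+ day 4 EBs with 95% intervals from limma (n = 2 each), for the 6 genes and for named genes of the Msx family, neural tissue, streak and mesoderm, and the BMP pathway; filled points have an adjusted p under 0.05. Msx1 lies at -2.71, T at -2.89 and Msx3 at 5.11, and the 4 Id genes lie between 0.26 and 0.53. Msx3 had 0 reads in both Trp53+/+ libraries, so its fold depends on the pseudocount and ran from 1.26 to 8.22 over the alternatives.

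The day 4 EBs of the 2 wild-type backgrounds can be set side by side in CPM, without a test, since they differ in line, strain, medium and table. Id1 had 145 and 125 CPM in E14 EBs and 38.3 and 53.6 CPM in Trp53+/+ C57BL/6J EBs. Msx1 had 29.3 and 65.5 CPM in E14 and a mean of 11.8 ± 0.23 CPM (SD, n = 2) in Trp53+/+, and Msx2 67.5 and 137 CPM in E14 and 22.5 and 13.2 CPM in Trp53+/+. Id3 had 121 and 174 CPM in E14 and 80.2 and 89.0 CPM in Trp53+/+. Id2 overlapped, with 19.4 and 35.1 CPM in E14 and 17.1 and 26.1 CPM in Trp53+/+, and so did Id4.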

How the data were processed

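RNA-seq was measured in 14 mouse libraries, 10 of E14 cells on 5 days and 4 of day 4 EBs of 2 genotypes. Per the labels' protocols they were made with TruSeq RNA v2, a kit that does not mark strand, and sequenced with paired ends. The submitters' processing notes list HTSeq 0.5.4, SAMtools 0.1.19, DESeq2, Bowtie2 and FastQC 0.11.3 beside build mm9, with no role or order. The authors deposited a signal in which each library's counts were scaled by a single factor. Dividing by that step gave whole reads for 100% of values (tolerance 1e-06), from which CPM were computed. Reads without molecular identifiers are not independent molecules, so intervals and the floor of 3 reads cover counting error only. The ChIP-seq and input samples are not analysed here.

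Each table was fitted whole with limma 3.58.1 (R 4.3.3, intensity trend) on log2(signal + 1) after edgeR's filterByExpr, with 5 residual and 4.98 prior degrees of freedom in the time course and 2 and 4.33 in the genotype table. The step was tested on simulated data. Alternatives were edgeR 4.0.16 and DESeq2 1.42.0 on recovered reads, pseudocounts of 0.25 and 10, CPM scaling, a minimum of 1 CPM, no filter, a replicate block and each library left out. The members and gene lists were chosen with earlier results of these data known. Text names the 6 genes, set pathway genes, up to 3 called genes of smallest p per list, and the 3 most correlated genes per member. Replicate numbers were not taken to pair the libraries, since no label ties a number to a shared culture or day.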

Additional observations from a re-analysis of the deposited data

How the results depend on the processing

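Of the members called at day 4 against day 0 (3), day 4 against day 2 (3) and on any day (4), no count moved by over 1.5 times under another tool, scaling, filter or pseudocount; leaving out a library gave 2 to 4, 2 to 4 and 3 to 6. Leaving out a library gave 1 to 5 for day 3 against day 0 (3 with all), 0 to 3 for day 1 against day 0 (0), 0 to 1 for day 2 against day 1 (0), 1 to 4 for day 4 against day 3 (3), 0 to 4 for day 2 against day 0 (1), and 1 to 3 for the genotypes (1). DESeq2 called 5 at day 3 against day 0, 1 at day 1 against day 0, 2 at day 2 against day 0 and 2 between genotypes. The cause was not tested.

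Some log2 changes that were not called turned sign when a library was left out. At day 1 against day 0 the range was -0.60 to 0.42 for Id1, -0.58 to 0.47 for Id2, -1.14 to 0.40 for Id3, -1.17 to 0.54 for Id4 and -0.32 to 0.14 for Msx2 (0.025 without day 1 replicate 2). At day 2 against day 0 it was -0.95 to 0.097 for Id2, -1.47 to 0.073 for Id3 and -1.39 to 0.33 for Id4. At day 4 against day 0 it was -0.31 to 1.23 for Id3 and -1.46 to 0.25 for Id4. Id2 ran from -0.061 to 0.84 at day 4 against day 3, Id4 from -0.16 to 0.013 at day 4 against day 2, and Id1 from -0.016 to 0.54 between genotypes. Msx1 ran from -0.58 to 0.89 at day 2 against day 1, where DESeq2 gave -0.022 and edgeR -0.0092.

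Over all genes, calls at day 4 against day 0 numbered 5698, with 2811 to 7516 when a library was left out, and between genotypes 184, with 151 to 1599; DESeq2 called 657 between genotypes. DESeq2 also called 1450 genes at day 1 against day 0 (523 with limma), 1290 at day 2 against day 1 (94), 315 at day 3 against day 2 (21) and 1026 at day 4 against day 3 (464). With the replicate block, 4 members were called between genotypes (Id2 and Id3 higher, Msx1 and Msx2 lower) and 2973 genes overall. It also called Smad1, Smad6 and Bmper lower and Tcf15 higher with loss, and 3 of 9 ligands, 1 of 4 SMADs, 2 of 6 intracellular inhibitors, 5 of 9 antagonists and 5 of 13 other BMP targets. Deviations of same-numbered libraries correlated at 0.572 between the 2 genotypes, with 2 libraries each, and from -0.19 to 0.351 between days. Rn45s, the gene with the most reads in each genotype library, took 0.63% and 4.30% of reads in Trp53+/+ replicates 1 and 2. In loss replicates 1 and 2 it took 0.85% and 2.91%. Whether same-numbered genotype libraries are paired was not tested, and the labels do not say. The block left the members' counts of the time course as they were. With 2 libraries a group, and 9 and 16 reads of Msx1 at day 0, small changes were not detectable.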
